A study of Mus musculus with 2 samples.

Results

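Conventional dendritic cells are the antigen-presenting cells of the liver that prime T cells, and 110 of the 32316 barcodes in this single-cell RNA-Seq of mouse liver were taken as such. A barcode was chosen when it held at least 1000 unique molecular identifiers (UMIs, each marking a single captured RNA molecule) and at most 25% of them from mitochondrial genes. It also needed at least 2 UMIs of Xcr1, Clec9a, Cd209a, Flt3 and Zbtb46 together, at least 5 UMIs of the MHC class II gene H2-Ab1, fewer than 10 UMIs of the macrophage genes C1qa, C1qb and C1qc together, and none of Siglech (plasmacytoid dendritic cells), Cd79a (B cells) or Cd3e (T cells). Members were called type 1 when Xcr1 or Clec9a was seen without Cd209a (67 cells) and type 2 when Cd209a was seen without the other two genes (33 cells). In 4 cells both kinds of gene were seen and in 6 cells neither. These genes chose the cells, so their levels are given as a description and support nothing.

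The study deleted Cebpa, a transcription factor gene of hepatocytes and myeloid cells, in hepatocytes and followed liver fibrosis under a fructose-, fat- and cholesterol-rich diet (HFCFD). Its 2 single-cell libraries were labelled Cebp KO and Cebp WT, and the mice of both had received the 40% HFCFD for 2 weeks, so no library of mice off the diet was analysed here. The hepatocyte-specific mice of the study carried floxed Cebpa (Cebpa fl/fl) and Cre under the Albumin promoter, in a constant (Albumin-cre) or an inducible form (Albumin-ERT2-cre), on C57BL/6N. The Albumin promoter is active in hepatocytes, so the design leaves Cebpa intact in dendritic cells. For 2 weeks of the diet the study's account names the Albumin-cre mice (Cebpa ΔHep) beside the single cells, in a staining, and does not name the line for the cells themselves. The sources used here give neither the age of the mice nor how many livers went into each library. Both libraries share a joined matrix in which barcodes end in suffix 1 or suffix 2, and no label ties a suffix to a genotype. Values are therefore given for the pool and for a pair of libraries of unassigned genotype, knockout was not compared with wild type, and no p-value is given because cells of a library are not replicates.

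Conventional dendritic cells arise from bone marrow precursors that depend on the FLT3 receptor and carry ZBTB46. Type 1 cells depend on IRF8, BATF3 and ID2, take up dead cells through CLEC9A, present their antigens on MHC class I to CD8 T cells and are drawn to cells releasing XCL1 through XCR1. Type 2 cells are more varied, carry SIRPA and CD11b (Itgam), and mainly present on MHC class II to CD4 T cells. Cells of both types that take up the signal to mature raise CCR7, the receptor that guides them to lymph nodes.

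The suffix 1 library held 17313 barcodes and 60048646 UMIs, at a median mitochondrial share of 4.07%, and the suffix 2 library 15003 and 52355243, at a median of 41.3%. The UMI and mitochondrial limits kept 8320 and 4676 barcodes. Of the barcode sequences, 81 occurred in both libraries, none of them among the dendritic cells.

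The dendritic cells made up 0.553% of the barcodes within these limits in the suffix 1 library (46 of 8320, with a 95% interval of 0.405% to 0.737%) and 1.37% in the other (64 of 4676, 1.06% to 1.74%). The intervals, exact binomial for shares and exact Poisson for levels, cover counting error only, and the mitochondrial limit removed unequal parts of the libraries. Type 1 cells were 70.5% of the cells of a single type with suffix 1 (54.8% to 83.2%) and 64.3% with suffix 2 (50.4% to 76.6%), so the intervals overlapped widely. Dendritic cells were deep, with 4993 to 45540 UMIs and a median of 11491.5. Type 1 cells had a median of 14094 UMIs and 3812 detected genes, against 7942 UMIs and 2828 genes in type 2 cells, and the part of this gap in what was detected was tested only by thinning, given beside the shares below.

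Clec9a, the receptor for exposed actin of dead cells, was seen in 69 of the 110 cells, and Xcr1 in 57, of which 55 also held Clec9a. Cd209a, a lectin gene of the DC-SIGN family, was seen in 37, Flt3 in 94 and Zbtb46 in 80. H2-Ab1 ran from 7 to 277 UMIs per cell with a median of 65.5. The split into types was mostly far from its limit: type 1 cells held a median of 8 UMIs of Xcr1 and Clec9a (6 cells had only 1) and type 2 cells a median of 5 of Cd209a (4 cells had only 1). The outer limits lay at different distances from the cells. Near the limits, 4 cells held just 2 UMIs of the 5 marker genes and 9 barcodes missed by 1 UMI, and the mitochondrial shares on either side were 24.7% and 25.9%. By contrast, the highest C1q sum inside was 5 and the lowest outside was 21. H2-Ab1 stood at 7 inside and 4 outside. Flt3 was at 300 (268 to 334) and 143 (102 to 193) CPM in type 1 and type 2 cells (CPM, UMIs of a gene per 1000000 UMIs of the summed cells), and Zbtb46 was at 178 (154 to 205) and 115 (79.0 to 161) CPM. In the GRCm38 annotation these genes lie on chromosome 9 at 123852315 to 123862029 (Xcr1), chromosome 6 at 129408862 to 129424763 (Clec9a), chromosome 8 at 3743397 to 3748984 (Cd209a), chromosome 5 at 147330741 to 147400489 (Flt3) and chromosome 2 at 181387762 to 181459426 (Zbtb46). Clec1b overlaps Clec9a on the same strand, so reads there may have been shared between them.

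**Figure D1:**
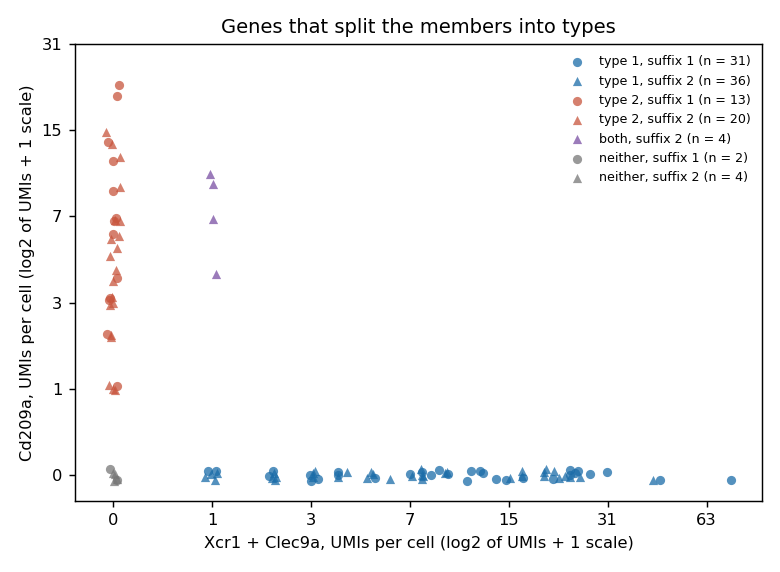
UMIs of Xcr1 plus Clec9a (x axis) and of Cd209a (y axis) in each of the 110 dendritic cells, both on a log2 of UMIs + 1 scale with slight jitter, coloured by type and shaped by library. The 67 type 1 and 33 type 2 cells lie along the axes by construction, and the 4 cells with both hold 1 UMI on the x axis and 4 to 10 of Cd209a.

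The label was checked against genes that did not choose the cells, beside 242 plasmacytoid dendritic cells, 79 monocytes, 723 Kupffer cells (the resident macrophages of the liver) and 377 B cells picked by their own marker genes in the same libraries. A gene was tested at 100 CPM or more in either group and counted as higher at 2-fold or more in the pool and in each library, after 3 UMIs of the smaller sum were added to both. Over all genes tested, 10.3% were higher in the dendritic cells than in plasmacytoid dendritic cells, 8.39% than in monocytes, 13.5% than in Kupffer cells and 16.2% than in B cells. In the other direction, 13.6%, 9.50%, 23.1% and 9.57% were lower than in these classes, in the same order. Genes of the dendritic cell lists mostly entered this test through their level in the dendritic cells, so no count over those lists is given. Of the type 2 list, few genes reached the level, and Sirpa, Itgam, Cx3cr1 and Cd300a were lower than in monocytes. The monocyte class was mixed, with T cell genes at 440 CPM and NK cell genes at 532 CPM, up to 36 and 56 UMIs in a cell. Id2, a repressor needed for these cells, stood at 1064 and 903 CPM in the dendritic cells of the 2 libraries, against 55.2 and 31.4 in plasmacytoid dendritic cells, 222 and 261 in monocytes, 217 and 151 in Kupffer cells and 51.2 and 47.8 in B cells. Itgax, which encodes CD11c, was at 135 and 138 CPM, and the highest value in any of the other classes was 38.3. These values are a description: Itgax was chosen after values were seen, and Itgax in every comparison, and Id2 against plasmacytoid dendritic cells and B cells, reached 100 CPM in the dendritic cells only.

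MHC class II genes were part of the choice, as the rule asked for 5 UMIs of H2-Ab1 and the other classes were picked without it, so their levels against those classes are a description. In the barcodes that missed only that limit, Cd74 was at 184 CPM (156 to 215). H2-Aa was at 4902 and 5137 CPM in the dendritic cells and at most 1442 CPM in any class and library, in B cells with suffix 1. Cd74, the invariant chain that guides class II molecules, was at 11979 and 11718 CPM, against 4968 and 4581 in B cells and under those values in the other classes. Ciita, the master regulator of class II genes, was at 403 and 407 CPM, and at 125 and 128 in B cells. H2-Ab1 was left out here because it chose the cells. Of the tested class II genes, 6 of 9 were higher than in plasmacytoid dendritic cells and 6 of 10 than in monocytes. Against Kupffer cells 6 of 10 were higher, and against B cells 7 of 11. The shares over all tested genes were 10.3%, 8.39%, 13.5% and 16.2%, in this order. The H2-Ab1 limit was asked of the dendritic cells alone, so these counts support nothing. Ctss, a lysosomal protease that trims the invariant chain, and Lgmn, another lysosomal protease, were lower than in monocytes and Kupffer cells, and H2-DMb2 and H2-Ob were lower than in B cells.

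Markers of most other cells were low in the dendritic cells, and hepatocyte RNA was found in every class. The 9 Kupffer cell genes, 3 of which limited the choice, summed to 75.6 CPM against 82.0 in B cells, and the neutrophil, T cell and NK cell lists summed to 9.02, 9.71 and 8.32 CPM. The hepatocyte list (Alb, Apoa1, Ttr and others) summed to 15938 CPM in the dendritic cells, at 14023 in type 1 and 22825 in type 2 cells, and to 30028 CPM in B cells, which make none of it. Fabp1 of this list passed 2-fold towards type 2 cells in the pool and both libraries. It therefore counts among the 83 genes higher in type 2 cells given below. The 9 monocyte genes summed to 805 CPM, with Chil3 at 0, and were higher in type 2 than in type 1 cells at 1460 and 582 CPM. Endothelial genes summed to 75.6 CPM in type 1 and 490 in type 2 cells (244 in B cells), with up to 79 UMIs in 1 cell, and cholangiocyte genes to 156 and 38.2 CPM. The stellate, erythroid, mast cell and B cell lists summed to 46.5, 121, 4.16 and 113 CPM and the plasmacytoid dendritic cell list, with Siglech at 0 by the rule, to 200 CPM. The part of these RNAs in the differences between the types was not tested.

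Type 1 and type 2 cells differed at 188 of the 1908 genes tested: 105 were higher in type 1 cells (5.50%) and 83 in type 2 cells (4.35%) in the pool and in both libraries. The median log2 ratio of type 1 to type 2 over all tested genes was -0.10. Among the 12 tested genes of the type 1 list, 10 were higher in type 1 cells and none in type 2 cells, with a median log2 ratio of 3.72. Among the 7 tested genes of the type 2 list, 5 were higher in type 2 cells and none in type 1 cells, with a median of -3.37. Genes such as Cadm1, Tlr3, Itgae and Rab7b reached 100 CPM in type 1 cells only, and Itgam and Clec10a in type 2 cells only. Such genes could not come out higher in the other type, so the level filter largely set these counts and medians. The lists were also drawn up with earlier results of these data known, so the counts are a description and not independent evidence for the labels.

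**Figure D2:**
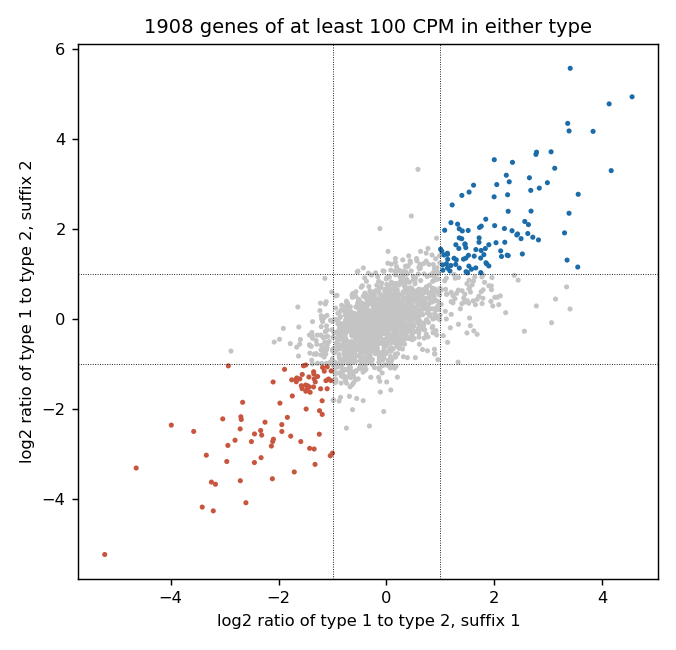
Log2 ratio of the summed level in type 1 to that in type 2 cells with suffix 1 (x axis) and suffix 2 (y axis) for the 1908 genes of at least 100 CPM in either type, Xcr1, Clec9a and Cd209a included. Blue marks the 105 genes higher in type 1 cells and red the 83 higher in type 2 cells; dotted lines mark 2-fold.

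The transcription factor gene Irf8 was a type 1 gene throughout. It was at 1339 and 1310 CPM in type 1 cells of the 2 libraries and at 101 and 11.2 CPM in type 2 cells, a ratio of 29.3 (17.1 to 55.2) in the pool. Single type 1 cells held 0 to 73 UMIs with a median of 20, and 6 of the 33 type 2 cells held any, at most 5. After thinning every cell to 1000 UMIs, Irf8 was seen in 61.2% of type 1 cells (95.5% before) and 6.06% of type 2 cells (18.2% before), against 13.8% of B cells (41.9% before, at a median of 3723 UMIs), a class that also uses Irf8. Gm20388 overlaps Irf8 on the same strand. Batf3, its partner in type 1 cells, was at 171 (147 to 197) and 93.9 (61.9 to 137) CPM, a ratio of 1.82 that did not reach 2-fold.

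Cadm1, Wdfy4 and Tlr3 of the type 1 list and Rab43 of the class I list were higher in type 1 cells. Cadm1, an adhesion molecule that marks them, was at 837 and 839 CPM in type 1 cells and at 9.21 and 11.2 in type 2 cells, a ratio of 80.3 (27.4 to 390) that rests on 3 UMIs in type 2 cells. It varied among type 1 cells, from 0 to 76 UMIs with a median of 8, and 58 of 67 held it. Thinned to 1000 UMIs, 43.3% of type 1 cells, 0 of 33 type 2 cells and 0.531% of B cells had a Cadm1 UMI, where 86.6%, 6.06% and 4.24% had one before. Wdfy4, required for cross-presentation, was at 1546 and 1717 CPM in type 1 cells and 452 and 514 CPM in type 2 cells, a ratio of 3.32 (2.80 to 3.97), with 28 of 33 type 2 cells holding it. At full depth Cadm1 was thus seen in 58 of 67 type 1 and 2 of 33 type 2 cells, whereas Wdfy4 was seen in most cells of both types. Tlr3, a sensor of double-stranded RNA, was at 212 and 211 CPM in type 1 cells with 1 UMI in type 2 cells, a ratio of 60.9 (10.8 to 2417). Rab43, a GTPase of cross-presentation, was at 580 (536 to 628) and 191 (144 to 249) CPM.

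Enzyme and adhesion genes of the type 1 list followed the same split. Naaa, a lysosomal amidase, was at 475 and 618 CPM in type 1 cells and 46.1 and 33.5 in type 2 cells, a ratio of 14.2 (7.89 to 28.7). Ppt1, a lysosomal thioesterase, was at 964 and 862 CPM against 27.6 and 72.6, a ratio of 16.5 (10.1 to 28.9). Itgae, which encodes the integrin CD103, was at 191 and 120 CPM in type 1 cells, in 36 of 67 cells, and at 0 in type 2 cells, at least 15-fold higher when 3 UMIs are allowed for a sum of 0. Rab7b, a late endosomal GTPase, was at 261 and 287 CPM and at 0 in type 2 cells, at least 26.2-fold higher. Cd24a (46.7-fold, 8.27 to 1855, with 1 UMI in type 2 cells) and Ifi205 (7.07-fold, 3.66 to 15.6) were also higher in type 1 cells.

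Outside the lists, the genes with the largest ratios towards type 1 included Gm36723, a long noncoding RNA gene on chromosome 12 at 25303940 to 25471979, at 540 and 438 CPM in type 1 cells and 27.6 and 5.58 in type 2 cells (35.3-fold, 13.7 to 130). Clnk, an adaptor of immune receptors, was at 202 and 203 CPM and 0 in type 2 cells, at least 19.4-fold higher. Fmnl2, an actin regulator, was held by all 67 type 1 cells, at 934 and 1124 CPM against 64.5 and 207. Zfp366, a zinc finger gene known from dendritic cells, was at 239 and 359 CPM against 73.7 and 39.1. Other genes of this kind were Ccser1, 5730522E02Rik, Slco3a1, Tbc1d8, Arsb, Rabgap1l and Dnase1l3, with ratios from 5.75 to 16.9. Dnase1l3, an extracellular DNase, came from 37 type 1 cells and reached 39 UMIs in 1 of them.

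Some of these genes were specific among the cells compared, and others were not. In type 1 cells, 14 genes that did not choose the cells were at least 4-fold above the type 2 cells and all 4 other classes in both libraries, among them Itgae, Gm36723, P3h2, Ccser1, Tlr3, Naaa, Ppt1, Clnk, Il12b, Ccl22, 5730522E02Rik, Ly75 and Htr7. Il12b and Ccl22 lay mostly in the 6 type 1 cells with Ccr7 described below, with 78 of 120 and 139 of 156 UMIs. No such gene was found for type 2 cells other than Cd209a, which chose them. Irf8 and Cadm1 missed the list because Irf8 was at 2227 CPM in plasmacytoid dendritic cells and Cadm1 at 627 CPM in Kupffer cells. Fmnl2 was at 846 and 1097 CPM in those 2 classes.

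Of the 16 genes of the type 2 list, 7 were tested and Sirpa, Itgam, Clec10a, Mgl2 and Cd300a were higher in type 2 cells. Sirpa, the inhibitory receptor for CD47, was at 92.1 and 240 CPM in type 2 cells and 9.0 and 7.75 in type 1 cells (21.9-fold, 10.7 to 50.6). Itgam was at 212 and 184 CPM, in 19 of 33 type 2 cells, and at 9.0 and 0 in type 1 cells (41.7-fold, 16.9 to 133). Clec10a, a galactose-binding lectin gene, was at 221 and 195 CPM and at 0 in type 1 cells, at least 73.3-fold higher, and its close relative Mgl2 was at 92.1 and 223 CPM against 0 and 3.88 in type 1 cells (93.1-fold, 24.5 to 790). Clec10a and Mgl2 are similar in sequence, so reads may be split between them. Mgl2 came from 11 of 33 type 2 cells and Clec10a from 17, so neither marked every cell. Among type 1 cells, Mgl2 was seen in 1 cell only, with 2 UMIs. Cd300a, an inhibitory receptor, was 12.5-fold higher (6.77 to 24.6). Clec12a (107 and 97.3 CPM) and Notch2 (167 and 118 CPM, type 1 first) did not reach 2-fold. Irf4, a factor of type 2 cells, had 13 UMIs in 9 of 33 type 2 cells and 4 UMIs in 3 of 67 type 1 cells, too few for a comparison here.

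S100a4, Fcer1g and Zeb2, higher in type 2 cells and outside the lists, were also abundant in monocytes. S100a4, a calcium-binding protein, was at 1244 and 1334 CPM in type 2 cells and 23.4 and 120 in type 1 cells (18.6-fold, 14.5 to 24.1). All 33 type 2 cells held it (1 to 31 UMIs, median 11), 13 of 67 type 1 cells did, and 1 of those held 38 UMIs. That cell, with suffix 2, was called type 1 on 1 UMI of Clec9a. It held no Xcr1, Irf8 or Cadm1, and 2 UMIs each of Sirpa and Mgl2, and its kind was not tested. The level of S100a4 in monocytes was 1367 CPM. Fcer1g, the common chain of Fc receptors, was at 1041 and 1223 CPM against 110 and 122 (9.98-fold, 8.09 to 12.4), and at 1465 CPM in monocytes. Zeb2, a repressor that acts in monocytes and type 2 cells, was at 811 and 525 CPM against 63 and 11.6 (16.5-fold, 11.7 to 23.8), and at 1593 CPM in monocytes. Thinned to 1000 UMIs, 63.6% of type 2 and 4.48% of type 1 cells had an S100a4 UMI (100% and 19.4% before), against 2.39% of B cells (4.51% before), and for Zeb2 the thinned shares were 39.4%, 2.99% and 17.0% (93.9%, 16.4% and 40.8% before).

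Klrd1, better known from NK cells as CD94, was at 525 and 167 CPM in type 2 cells and at 7.20 and 19.4 in type 1 cells (23.2-fold, 13.1 to 44.1). It was held by 25 of 33 type 2 cells, at most 7 UMIs each, and stood at 50.7 CPM in monocytes, while the NK cell list summed to 3.48 CPM in type 2 cells. Wfdc17 (341 and 20.5 CPM), Ms4a6b (226 and 14.0 CPM), Ms4a6c (459 and 57.8 CPM), S100a6 (987 and 107 CPM), Tmem176b (355 and 34.5 CPM), Tmem176a (313 and 40.1 CPM), Tent5a (236 and 24.3 CPM) and Trps1 (441 and 60.6 CPM) were also higher in type 2 than in type 1 cells, with type 2 given first. Tmem176a and Tmem176b overlap, and Ms4a6b and Ms4a6c are close paralogs, so their single values are uncertain.

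**Figure D3:**
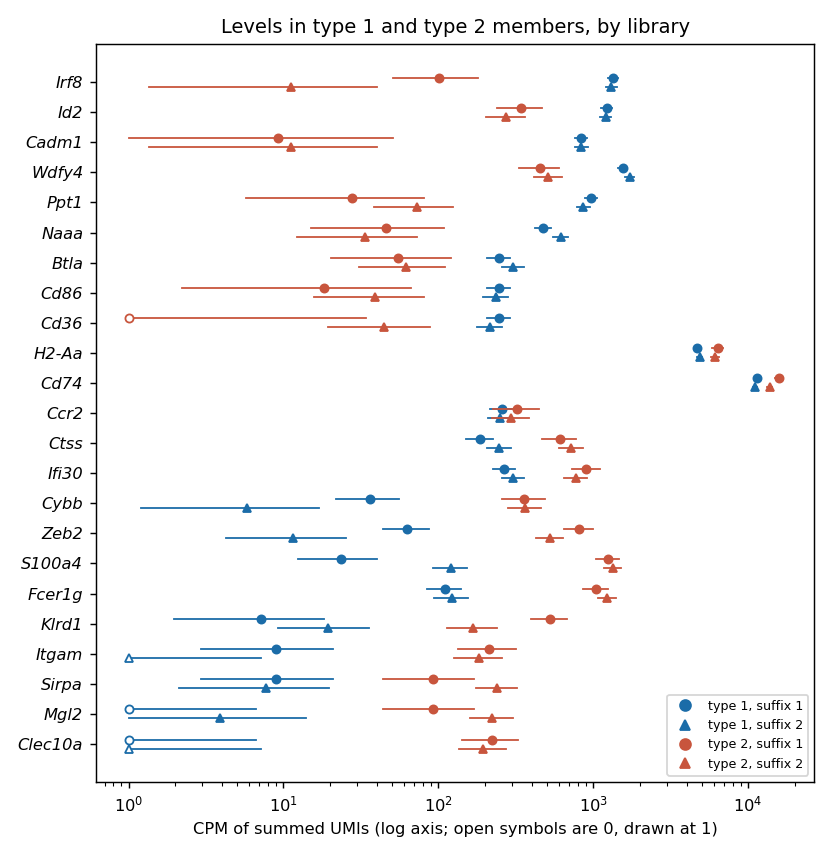
Levels of 23 genes in type 1 (blue) and type 2 (red) cells of each library, as CPM of summed UMIs on a log axis with exact Poisson 95% intervals; open symbols are 0 and are drawn at 1. Genes from Irf8 to Cd36 lie to the right in type 1 cells, H2-Aa, Cd74 and Ccr2 lie close together, and genes from Ctss to Clec10a lie to the right in type 2 cells, in both libraries.

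Genes shared by conventional dendritic cells were not evenly spread. Id2 was higher in type 1 cells, at 1218 and 1200 against 341 and 274 CPM (4.04-fold, 3.25 to 5.09), with 2 to 55 UMIs in every type 1 cell. Btla, an inhibitory receptor of lymphocytes and dendritic cells, was 4.64-fold higher in type 1 cells (2.85 to 8.08) and was found in 64 of 67 of them. Adam19, a metalloprotease, was 18.0-fold higher in type 1 cells (6.07 to 87.9) with 3 UMIs in type 2 cells. Bcl11a was 2.86-fold higher in type 2 cells (1.96 to 4.15). Dpp4 (272 and 195 CPM) and Spi1 (341 and 386 CPM, type 1 first), which encodes PU.1, did not reach 2-fold. In all, 3 of 7 tested genes were higher in type 1 and 1 in type 2 cells, beside 5.50% and 4.35% of all tested genes. Adam19 reached 100 CPM in type 1 cells only.

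Both types carried MHC class II genes within 2-fold of each other at most of the tested genes. H2-Aa was at 4644 and 4862 CPM in type 1 and 6349 and 6129 CPM in type 2 cells, a ratio of 1.31 (1.24 to 1.38) towards type 2. Cd74 was at 11321 and 11077 CPM in type 1 and 15720 and 13760 in type 2 cells, and its level per cell ran from 16.4 to 263 UMIs per 10000 in type 1 cells and from 53.6 to 290 in type 2 cells. The intervals of these 2 genes did not overlap between the types, but no difference reached 2-fold. The genes of this list that did reach it, 3 of 12, were all higher in type 2 cells, beside 4.35% of all tested genes. The 12 include H2-Ab1, which chose the cells. Ctss was at 608 and 720 against 185 and 248 CPM (3.15-fold, 2.59 to 3.82), Ifi30, a thiol reductase that unfolds antigens, was 2.90-fold higher (2.43 to 3.44), and H2-DMb2, which helps load peptides, was 4.21-fold higher (2.52 to 7.05). H2-DMb2 shares much of its sequence with H2-DMb1, so its value is uncertain.

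Of the MHC class I list, 1 of 12 tested genes was higher in type 1 cells (Rab43) and 1 in type 2 cells, beside 5.50% and 4.35% of all tested genes, so the counts were near the background. The gene higher in type 2 cells was Cybb, the catalytic part of the phagocyte NADPH oxidase, at 359 and 363 CPM in type 2 and 36.0 and 5.81 in type 1 cells (16.8-fold, 10.6 to 27.7). H2-K1 was at 850 (796 to 907) and 827 (726 to 939) CPM, B2m at 951 (893 to 1011) and 1147 (1027 to 1278) CPM and Psmb8 of the immunoproteasome at 630 (583 to 679) and 407 (336 to 487) CPM, type 1 first. The intervals of Psmb8 did not overlap between the types, but the difference did not reach 2-fold. Against Kupffer cells, Psmb8, Psmb9 and Rab43 were higher in the dendritic cells and Cybb was lower, at 104 against 1245 CPM. Cybb was also lower than in monocytes (922 CPM) and plasmacytoid dendritic cells (811 CPM).

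Few sensor genes were abundant enough to compare. Of 17, only Unc93b1, the chaperone of endosomal Toll-like receptors, was tested, at 326 (292 to 362) and 278 (221 to 346) CPM in type 1 and type 2 cells, and Tlr5 and Tlr8 had no UMI in any of the 110 cells. Tlr3, also a sensor but counted in the type 1 list, was higher in type 1 cells as given above, with 1 UMI in type 2 cells. Of the 17 uptake receptors in the matrix, 4 were tested. Ly75, the endocytic receptor DEC-205, was at 106 and 122 CPM in type 1 cells, in 40 of 67, and at 0 in type 2 cells, at least 10.9-fold higher. Cd36, a scavenger receptor for lipids and dead cells, was at 245 and 215 CPM in type 1 cells and 0 and 44.7 in type 2 cells (8.29-fold, 4.14 to 19.4), and 233 CPM in Kupffer cells. Fcgr2b, the inhibitory Fc receptor, was 9.63-fold higher in type 2 cells (5.92 to 16.1). It is also on the endothelial list, which summed to 490 CPM in type 2 and 75.6 in type 1 cells. The part of endothelial RNA in this ratio was not tested. Havcr2, which encodes TIM-3, was at 200 (174 to 228) and 122 (84.7 to 169) CPM, and at most 36.2 CPM in the pool of any other class.

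Among growth factor and chemokine receptors only Ccr2, which guides cells out of the bone marrow, was abundant enough to be tested. It was at 256 and 250 CPM in type 1 and 323 and 296 in type 2 cells, within overlapping intervals in the pool, and at 626 CPM in monocytes. Csf1r, the receptor of macrophage growth, was at 22.4 (14.3 to 33.3) and 86.9 (56.2 to 128) CPM, far under the 1121 CPM of Kupffer cells. Ccr9 had 68 UMIs in 29 type 1 cells and none in type 2 cells.

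Ccr7, the receptor of migrating mature cells, was found in 8 of the 110 cells with 30, 23, 16, 16, 14, 6, 3 and 3 UMIs, and no cell held 1 or 2. These were 6 of 67 type 1 cells (8.96%, 3.36% to 18.5%), 3 in each library, 0 of 33 type 2 cells, which allows a share of cells with a UMI of up to 9.09% (exact upper bound 10.6%), and 2 of the 6 cells with neither type's genes. The 2 latter cells had the most Ccr7 and the most Fscn1, the actin bundler of mature dendritic cells (21 and 11 UMIs), and the lowest H2-Ab1 of the 8 (8 and 7 UMIs). Ccr7 is also used by B cells, where 99 of 377 cells held it. The 149 barcodes that missed only the H2-Ab1 limit held 41 UMIs of Ccr7 and 110 of Fscn1, against 111 and 42 in the 110 cells. Whether that limit cut away cells of this kind was not tested.

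Type 1 cells with Ccr7 stood apart from the other 61 in many genes, and as Ccr7 chose them it is left out of the values. Over all 1942 genes tested in the pool, 14.4% were higher by 2-fold or more and 11.1% lower, counts that rest on 6 cells. Maturation genes such as Fscn1, Cacnb3 and Cd40 reached 100 CPM only in the cells with Ccr7, so no count over that list is given. Ccl22, a chemokine for regulatory T cells, was at 1727 and 17.1 CPM with and without Ccr7 (101-fold, 60.7 to 178). Il12b, the p40 chain of IL-12, was at 969 and 42.4 CPM (22.9-fold, 15.5 to 34.1). Fscn1 and Cacnb3 were at 112 and 124 CPM with Ccr7 and at 0 without, at least 36.9-fold and 41.1-fold higher. Cd40 was at 174 and 16.1 CPM, Cd80 at 248 and 17.1 CPM and Cd274, which encodes PD-L1, at 286 and 14.1 CPM, whereas Cd86 was at 211 and 242 CPM.

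The cells with Ccr7 were not uniform. Among the 6 type 1 cells, Ccl22 was at 0, 0, 50, 30, 26 and 33 UMIs and Il12b at 14, 0, 23, 0, 12 and 29. A cell with 16 UMIs of Ccr7 had neither, and held 4 UMIs of Fscn1 and 18 of Irf8. Relb, an NF-kB subunit of mature cells, was at 18, 1, 3, 2, 7 and 5 UMIs in the 6 cells, against 12 UMIs in the other 61 together (36.9-fold in CPM, 18.8 to 78.0). Of the 12 tested type 1 genes, Irf8, Wdfy4, Tlr3, Itgae and Naaa were lower by 2-fold or more, 7 did not pass and none was higher. Irf8 was at 658 and 1379 CPM, and Tlr3 at 74.5 and 223 CPM with and without Ccr7, and Cadm1, which did not pass, at 435 and 871 CPM. Cd74 was at 20710 and 10432 CPM, a ratio of 1.99 (1.88 to 2.09), and 5 of 13 class II genes were higher and 3 lower, among the latter Ciita. Beside the counts of both lists, 14.4% of all tested genes were higher and 11.1% lower.

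**Figure D4:**
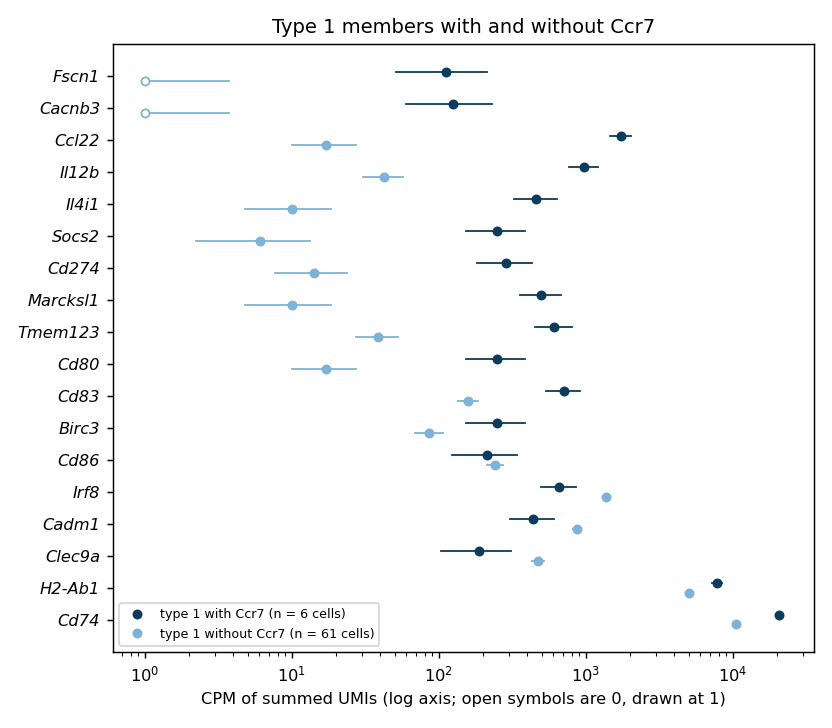
Levels of 18 genes in the 6 type 1 cells with Ccr7 (dark) and the 61 without (light), as CPM of summed UMIs on a log axis with exact Poisson 95% intervals; open symbols are 0 and are drawn at 1. Ccl22 stands at 1727 and 17.1 CPM and Irf8 at 658 and 1379 CPM.

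Several maturation genes reached 100 CPM in type 1 cells only, and the cells with Ccr7 held most of it for some of them. Of the 156 Ccl22 UMIs in type 1 cells, 139 were in the 6 cells with Ccr7. Il12b was at 149 and 71.7 CPM in type 1 cells, from 6 of 67 cells, and at 0 in type 2 cells, at least 10.7-fold higher. Apol7c had 138 UMIs in 4 type 1 cells, 91 of them in 1 cell, and was at 129 CPM with it and 44.7 CPM without it. By contrast Cd86, a costimulatory ligand, was widespread: 61 of 67 type 1 cells held it, at 245 and 234 CPM against 18.4 and 39.1 CPM in type 2 cells (7.66-fold, 3.97 to 17.0). Cd83 was found in 41 type 1 cells and was 2.87-fold higher in them (1.81 to 4.80).

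Some type 1 cells held many UMIs of genes that dividing cells use. Counting the UMIs of 12 proliferation genes, 19 of the 110 cells held 68 to 264, and the next cells below held 47 and 33, with a median of 4 among all cells below the limit of 60, which was set after the values were seen. Of these, 17 were type 1 cells (25.4% of 67, 15.5% to 37.5%), 7 with suffix 1 and 10 with suffix 2, and 2 were type 2 cells with suffix 2 (6.06% of 33, 0.743% to 20.2%). The intervals overlapped. The cells above the limit were deeper, with a median of 18710 UMIs against 10252, but per 10000 UMIs the genes also stood at 32.2 to 113 (median 77.7) against 0 to 41.6 (median 3.20). At 25 or more per 10000 UMIs, 26.9% of type 1 cells (16.8% to 39.1%) were found, against 0 of 242 plasmacytoid dendritic cells (0% to 1.51%), 2 of 79 monocytes (2.53%, 0.308% to 8.85%), 3.32% of Kupffer cells (2.14% to 4.90%) and 2.39% of B cells (1.10% to 4.48%). The share in type 1 cells lay above the intervals of all 4 classes in the pool and in each library. With suffix 1 its own interval (9.59% to 41.1%) overlapped that of monocytes (0.0684% to 14.2%).

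**Figure D5:**
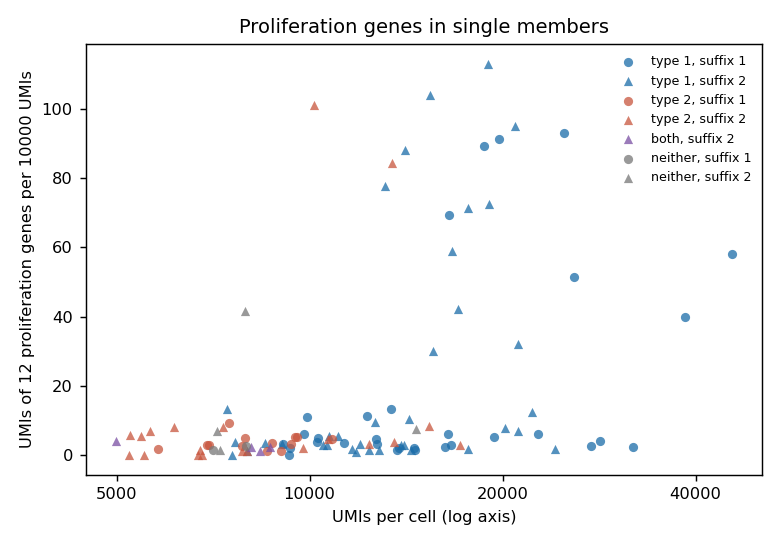
UMIs of 12 proliferation genes per 10000 UMIs (y axis) against the UMIs of each of the 110 dendritic cells (x axis, log), coloured by type and shaped by library. The 19 cells with at least 60 UMIs of these genes stand at 32.2 to 113 per 10000, and most of them are type 1 cells.

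Mki67, a marker of cycling cells, was at 252 and 240 CPM in type 1 cells and 0 and 140 CPM in type 2 cells, and was at 12.7 CPM in type 1 cells without the 17 cells above the limit. Top2a, the topoisomerase of dividing cells, was at 264 and 310 against 0 and 262 CPM. The type 2 values with suffix 2 came from 2 or 3 cells. Stmn1 (3.24-fold, 2.24 to 4.83), Hmgb2 (3.28-fold, 2.56 to 4.27) and Ube2c (3.34-fold, 1.70 to 7.49) were higher in type 1 cells.

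The type 1 cells above the proliferation limit were set beside the other type 1 cells. Against those 50 cells, 8.50% of 1941 tested genes were higher by 2-fold or more in the pool and 4.53% lower, and all 10 tested proliferation genes, which chose the cells, were among the higher ones. None of the 13 tested type 1 genes passed 2-fold, and none of 10 class II genes, counts too small to be told from those shares. Irf8 was at 1471 and 1250 CPM and Cd74 at 9233 and 12216 CPM in these and the other type 1 cells. Cd83 was at 74.2 and 264 CPM, and Ccl22 and Il12b had 0 UMIs in these cells against 156 and 120 in the others. The 6 type 1 cells with Ccr7 were all below the limit, at 2 to 12 UMIs of the proliferation genes.

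Cytokine and chemokine genes were sparse, and Il6, Il10, Il12a and Il23a had no UMI in any dendritic cell, which allows up to 2.08 CPM each. Cxcl10, which draws T cells through CXCR3, had 80 UMIs in 4 type 2 cells and none in 67 type 1 cells, at least 99.4-fold higher. The 2 highest cells, 1 in each library, held 47 and 29 UMIs. Without them the type 2 level was 14.5 CPM (3.96 to 37.2) in place of 278 (221 to 346), so 2 cells decided this value. Cxcl9, its relative, was at 105 and 97.3 CPM in type 1 and type 2 cells of the pool. Of its 142 UMIs, 83 lay in 1 type 1 cell and 18 in 1 type 2 cell, both with suffix 1. Cxcl16 was at 116 (96.2 to 138) and 45.2 (24.1 to 77.3) CPM, type 1 first. Art3 overlaps Cxcl10 on the other strand.

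Interferon-stimulated genes, which antiviral interferons switch on, were mostly below the level compared, at 8 of 11, and Isg15 and Oasl2 reached 100 CPM in type 2 cells only. Isg15, a ubiquitin-like protein, was at 166 and 207 CPM in type 2 cells and 54.0 and 21.3 CPM in type 1 cells (5.0-fold, 3.28 to 7.68), and still at 116 CPM (78.8 to 165) without its 2 highest type 2 cells. It was seen in 24 of 67 type 1 and 12 of 33 type 2 cells. Oasl2 was at 138 and 83.7 CPM against 7.20 and 3.88 (18.6-fold, 7.63 to 54.7). The spread between cells was wide. Summed over 11 such genes, type 1 cells held 0 to 15.9 UMIs per 10000 (median 2.86) and type 2 cells 0 to 96.9 (median 4.10), and the next type 2 values were 29.0 and 27.3. The cell at 96.9, with suffix 2, held 47 UMIs of Cxcl10, 18 of Isg15, 16 of Ifit1, 9 of Ifit2, 10 of Ifit3 and 5 of Rsad2. It also held 92 UMIs of Lyz2 and 16 of Ly6c2, the highest of all 110 cells for both, and 133 UMIs of the 9 monocyte genes against a type 2 median of 9. Without this cell Cxcl10 was at 117 CPM (80.9 to 165) and Isg15 at 132 CPM (92.7 to 182) in type 2 cells, and the part of its monocyte genes in the result was not tested. The other Cxcl10-rich cell, with suffix 1, held 29 UMIs of Cxcl10, 10 of Gbp2, 1 of Lyz2 and none of Isg15, Ifit1, Ifit2, Ifit3 or Ly6c2. Cxcl10 was thus found with the Ifit genes in 1 of these 2 cells. A type 2 cell with 3 UMIs of Cxcl10 held 6 of Isg15, 7 of Ifit1, 9 of Ifit2 and 7 of Ifit3.

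The promoters of 4 genes of that cell are shown because they share a motif. The letters searched were GAAANNGAAA on either strand (TTTCNNTTTC on the other), the core that interferon-activated factors bind, in the 250 bases before each gene's start in RefSeq on GRCm38.p6. It lay in 978 of 32851 promoters (2.98%), in 7 of 11 of the interferon-stimulated genes and Cxcl10 with a promoter in the table (Cxcl10, Gbp2, Ifit1, Ifit3, Isg15, Rsad2 and Stat2), in 2 of 10 of the type 1 list (Ifi205 and Tlr11) and in 0 of 11 of the type 2 list. Matches are in capitals, in stretches read 5′ to 3′ along the gene. A match is a description of the letters, not evidence that a factor was bound.
Cxcl10 (chr5:92349033-92349139, minus strand, match ending 204 bases before the start): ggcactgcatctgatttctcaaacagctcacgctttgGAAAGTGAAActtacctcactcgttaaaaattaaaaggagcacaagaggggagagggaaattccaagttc
Isg15 (chr4:156200819-156200956, minus strand, 3 overlapping matches): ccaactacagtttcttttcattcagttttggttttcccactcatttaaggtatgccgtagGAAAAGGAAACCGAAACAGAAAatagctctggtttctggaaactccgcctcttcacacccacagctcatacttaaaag
Ifit1 (chr19:34640725-34640873, plus strand, 2 matches): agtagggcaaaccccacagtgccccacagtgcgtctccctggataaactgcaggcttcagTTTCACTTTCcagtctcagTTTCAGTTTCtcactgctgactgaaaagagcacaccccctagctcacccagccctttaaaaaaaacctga
Ifit3 (chr19:34583313-34583476, plus strand, 2 matches): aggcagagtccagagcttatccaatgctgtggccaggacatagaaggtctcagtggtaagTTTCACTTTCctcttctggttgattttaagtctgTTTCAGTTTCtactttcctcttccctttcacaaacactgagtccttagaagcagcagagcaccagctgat

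Genes of lipid handling did not separate the types at the 3 of 10 that were tested. Plin2, which coats lipid droplets, was at 165 (142 to 191) and 167 (123 to 221) CPM. Apoe was at 3818 and 6079 CPM in type 1 and 3787 and 8959 CPM in type 2 cells, and at 6235 and 10403 CPM in B cells of the same libraries, above both types in each. Some lipid genes that Kupffer cells use were lower in the dendritic cells, where 23.1% of all tested genes were lower: Lpl, a lipase, was at 16.6 CPM against 933 CPM in Kupffer cells, and Abca1, a cholesterol exporter, at 21.5 against 572 CPM.

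Among the genes the study followed, Cebpa was at 23.4 (12.5 to 40.0) and 36.8 (22.2 to 57.5) CPM in type 1 cells and 55.3 (20.3 to 120) and 106 (63.9 to 166) CPM in type 2 cells of the 2 libraries, from 13, 19, 6 and 19 UMIs. Within each type the intervals of the libraries overlapped. Cebpb, a relative of Cebpa, was 2.95-fold higher in type 2 than in type 1 cells (1.82 to 4.73), at 138 and 106 against 48.6 and 31 CPM, and at 543 CPM in monocytes. Spp1, the gene for osteopontin, was at 700 and 21.3 CPM in type 1 cells with suffix 1 and suffix 2. Of its 409 UMIs in the dendritic cells, 362 lay in 3 type 1 cells with suffix 1, which held 172, 103 and 87 UMIs and also 24, 17 and 27 UMIs of cholangiocyte markers (Tm4sf4 left aside), which bile duct cells make. Without these 3 cells the level with suffix 1 was 58.4 CPM (38.5 to 84.9), against 116 CPM (97.4 to 138) in B cells of that library, and the 21.3 CPM with suffix 2 stood beside 17.3 CPM (10.1 to 27.7) in B cells. Cd44 (163 and 205 CPM) and Itgb1 (195 and 233 CPM, type 1 first), whose products bind osteopontin, did not reach 2-fold between the types.

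The cells that fell into neither type or both were of several kinds. The 4 cells with both kinds of gene, all with suffix 2, held 4 to 10 UMIs of Cd209a, 1 of Clec9a and none of Xcr1, Irf8 or Cadm1, and 7 to 11 UMIs of Fcer1g. S100a4, which every type 2 cell held, was at 0, 9, 17 and 11 UMIs in them. Zeb2, Clec10a and Itgam were each seen in 3 of the 4 cells, and Sirpa and Mgl2 in 1. Of the 6 cells with neither, 2 were the cells with the most Ccr7, 1 held 53 UMIs of Zeb2, 14 of Wdfy4 and 4 of Flt3, and 1 held 36 UMIs of Lyz2, 26 of Zeb2 and no Flt3, together with 35 UMIs of endothelial markers, 22 of them of Ptprb. Markers of another cell type reached 5 UMIs in 9 of the 110 cells, 6 with suffix 1 and 3 with suffix 2, when Fcgr2b, Pecam1, Csf3r, Tm4sf4, Ecm1 and Dcn were left out of the lists, a choice made after values were seen. These cells held up to 27 UMIs of cholangiocyte and 64 of endothelial genes, or 67 and 79 on the whole lists. Without these 9 cells, type 1 cells were 65.2% of the cells of a single type.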

How the data were processed

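Liver cells of 2 mouse samples were captured by 10x Genomics 3' chemistry. The authors deposited 1 joined matrix of raw UMI counts for 32285 genes and 32316 barcodes; the submitters' notes name Cell Ranger 7.1.0, bcl2fastq 2.20.0, STAR 2.7.2a and mm10. How cells were called, how introns were handled and whether reads were thinned before joining is not stated in those sources. Nothing ties a barcode suffix to a sample, so samples were not compared.

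Counts were used as deposited. The marker rule and the gene lists were chosen with earlier results of these data known. UMIs were summed over cells and scaled to CPM; their 95% intervals are exact Poisson, those of shares are Clopper-Pearson, and ratios carry exact conditional binomial intervals. A sum of 0 was set to 3 UMIs for a lower bound. Ratios of genes at 2-fold or more were counted with 3 UMIs of the smaller sum added. For plasmacytoid dendritic cells, Kupffer cells and B cells at least 2 UMIs of Siglech, Clec4f or Cd79a were asked, and for monocytes at least 5 UMIs of Ly6c2, Ccr2, F13a1 and Chil3. The planned monocyte rule also held Fn1, which hepatocytes use, and took 929 barcodes; Fn1 was dropped after this was seen, leaving 79. Named genes were all marker genes of the rule, the 5 most abundant of each list and every listed gene past 2-fold in the pool and both libraries, and the 12 with the largest and 12 with the smallest ratio outside the lists at 200 CPM or more, of which 1 is not reported here. The splits by Ccr7 and by proliferation genes, the genes above all classes, and the cells and genes named with them (Batf3, Irf4, Ccr9, Cebpa, Ciita and Itgax among others) were chosen after values were seen. No doublet caller was run; cells with markers of another class were counted instead. No test across samples was possible with 1 sample per group. Scripts were tested on simulated data. Thinning used 1000 UMIs per cell, which left out no member. Positions are from GENCODE M21 on GRCm38 (32158 IDs, 99.6%, matched), and promoters from RefSeq; 2 listed symbols, Clec7a and Mx1, were not analysed here. Python 3.11.15, numpy 2.4.6, scipy 1.17.1, pandas 2.3.3 and matplotlib 3.10.9 were used.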

Additional observations from a re-analysis of the deposited data

Results flagged for a closer look

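Barcodes that missed a single limit of the rule held UMIs of the 5 marker genes outside the cells reported above, more than the 3 UMIs that a count of 0 allows. The 23 barcodes that missed only the mitochondrial limit, 11 with suffix 1 and 12 with suffix 2, held 429 such UMIs at a median of 17773 UMIs per barcode and a mitochondrial share of 35.5%. Their type 1 genes stood at 680 CPM (606 to 761) for Irf8, 667 CPM (593 to 747) for Cadm1 and 1144 CPM (1047 to 1247) for Wdfy4. The 64 barcodes that missed only the C1q limit held 326 UMIs of the marker genes, with Clec9a at 200 CPM (172 to 231) and Xcr1 at 37.7 CPM (26.2 to 52.4), beside the Kupffer cell genes Cd5l at 4167 and Clec4f at 2579 CPM. The 18 barcodes that missed only the Cd3e limit held 248, with Irf8 at 830 CPM (730 to 940), Wdfy4 at 927 CPM (821 to 1043) and the T cell genes Cd3d and Trac at 194 and 161 CPM. The 149 barcodes that missed only the H2-Ab1 limit held 501 such UMIs, with Cd74 at 184 CPM (156 to 215). Fscn1 was at 128 CPM (105 to 154) and Ccr7 at 47.7 CPM (34.2 to 64.7) in them. The 78 that missed only the Siglech limit, 9 of them by 1 UMI, held 444, with Irf8 at 2020 CPM. Whether these are single cells was not tested.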

How the results depend on the processing

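No paired analysis was possible because each group has 1 sample and no suffix is tied to a sample. Of 96 recomputed values, 85 moved by less than their counting interval or 1.5 times. The share of dendritic cells moved with the number of barcodes kept: with suffix 1 it was 0.396% at a minimum of 500 UMIs and 1.10% at 2000, and with suffix 2 it was 1.05% and 1.94%, and 0.893% at a mitochondrial limit of 50%, while the numbers of cells were 46 and 64 at both UMI minimums. Genes past 2-fold between the types in the pool alone numbered 167 and 163 (type 1, then type 2). They were 322 and 305 at a level of 50 CPM and 759 and 589 with no filter on levels, which admits genes of few UMIs. Leaving out the cells with Ccr7 gave 161 and 165, those above the proliferation limit 161 and 178 and those with mixed markers 171 and 184, and the libraries alone gave 194 and 220 and 178 and 190, so the larger side turned from type 1 to type 2. Against monocytes, 929 genes were higher and 627 lower under the planned rule, and 212 and 274 without Fn1, where the larger side also turned, an alternative added after seeing the data. Of the 178 named genes, the ratio between the types moved beyond its interval at 39 with suffix 1 alone, 19 with suffix 2 alone, 55 with the B cell level subtracted and 8 as a mean over cells. Subtracting the B cell level moved the CPM of 118 of them in type 1 and 84 in type 2 cells beyond the interval. With 33 type 2 cells and 287665 UMIs, levels under 10.4 CPM could not be told from 0.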

Other observations

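Csf2ra and Csf2rb, the chains of the GM-CSF receptor, were at 87.7 (70.9 to 107) and 87.7 (70.9 to 107) CPM in type 1 cells and at 86.9 (56.2 to 128) and 76.5 (47.9 to 116) CPM in type 2 cells, below the level at which genes were compared. In B cells they were at 9.37 (5.72 to 14.5) and 8.43 (5.0 to 13.3) CPM, and in plasmacytoid dendritic cells at 19.2 (13.4 to 26.8) and 108 (93.2 to 124) CPM. Csf3r, the G-CSF receptor, had 2 UMIs in each type. The innate sensing genes Myd88 (17.7 and 52.1 CPM) and Tmem173, which encodes STING (25.2 and 76.5 CPM, type 1 first), were also below that level, with ratios towards type 2 of 2.94 (1.39 to 6.11) and 3.04 (1.65 to 5.54). Tgfb1, a cytokine that restrains T cells, was at 79.2 and 85.3 CPM in type 1 and 212 and 151 CPM in type 2 cells of the 2 libraries, a ratio of 2.12 (1.47 to 3.03) in the pool that did not reach 2-fold with suffix 2. Mrc1, the mannose receptor, came from 7 of 33 type 2 cells at 66.0 CPM (39.8 to 103) and stood at 1157 CPM in Kupffer cells.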
